A study of Mus musculus with 6 samples.

Results

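The NF-κB subunits, their inhibitors and the kinase that releases them were examined in synovial fibroblasts (SFs), the stromal cells of the joint membrane, with and without amisulpride. The members were 10 genes chosen by name, Nfkb1, Nfkb2, Rel, Rela, Relb, Nfkbia, Nfkbib, Nfkbie, Nfkbiz and Ikbkb, out of 49548 genes in the deposited table. All 10 had a value of at least 10 normalized counts in at least 3 of the 6 libraries and were tested, with 12614 genes tested in all. The 6 libraries came from cultured ankle joint SFs of 8-week-old hTNFtg mice, which carry a human TNF transgene and develop arthritis, on the CBA C57BL/6J background, with CD45+ cells depleted at passage 1. In the untreated group (3 libraries) the labels give no treatment, whereas the study's methods speak of vehicle, and in the amisulpride group (3 libraries) the cells received 500 μM amisulpride, a drug used against psychosis that acts on dopamine and serotonin receptors, for 48 hours. Both groups carried the transgene, so no comparison with cells free of it is made here. Values are normalized counts, that is, reads near the 3′ end of each transcript scaled by the authors to make libraries comparable, and the study thresholds ask for a log2 fold change of 1 or more in either direction and for p under 0.05 before adjustment.

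NF-κB is a family of dimeric transcription factors that TNF activates. In resting cells the dimers are held in the cytoplasm by IκB proteins, and when TNF binds its receptor the IκB kinase (IKK) complex phosphorylates IκB, which is then degraded, so that the dimers enter the nucleus. Several genes of the system are themselves NF-κB targets, above all Nfkbia, whose resynthesis ends the response, so their transcripts are widely read as a measure of pathway output. In SFs the pathway drives chemokines, metalloproteinases and adhesion molecules in arthritis.

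The libraries held approximately 2.52 to 4.71 M reads, as far as the rounded values allow this to be recovered. The depth of untreated replicate 1 (3.99 M) is uncertain. Amisulpride replicate 3 was the shallowest (2.52 M, with the fewest genes above 0, 16851), followed by amisulpride replicate 2 (2.94 M). Both lay below the untreated range of 3.63 to 4.71 M, and amisulpride replicate 1 lay within it. The part of depth in the differences between groups was not tested. The 12 fibroblast markers were all present, and the 8 lymphocyte markers were at 0 in every library. Of the myeloid markers 11 of 12 passed the filter, with summed values of 2566 to 4532 in untreated and 2261 to 4373 in treated libraries. Lyz2 made up most of these sums, at 3046, 1733 and 2188 in untreated and 3287, 1879 and 1394 in treated libraries. Ptprc, which encodes CD45, stood at 38, 12 and 18 in untreated and 23, 5 and 5 in treated libraries. The myeloid markers did not all move the same way. Cd14 was lower with no overlap, at 121, 69 and 76 against 47, 25 and 13. Cd68 had a higher mean in treated libraries, at 210, 119 and 144 against 219, 122 and 256. So did Adgre1, at 39, 25 and 14 against 59, 43 and 32. Of the 8 mast cell and basophil markers 2 passed the filter, Mcpt8 and Gata2. The sum over the 8 was 375 to 535 in untreated and 106 to 170 in treated libraries. Mcpt8, a basophil protease, stood at 486, 425 and 327 against 96, 68 and 72. It made up most of the sum except in amisulpride replicate 3. Gata2 did not fall in the same way, at 38, 49 and 43 against 36, 29 and 98. Cpa3, Ms4a2 and Fcer1a were at 0 in every library. The part of such cells in the members' values was not tested. Amisulpride replicate 3 stood apart from the others on the leading principal component, at 73.87 against -38.15 to 10.39, and is therefore given separately where it decides a value.

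The start regions of the members are shown because induction of NF-κB genes by NF-κB itself runs through short sites in such regions. RefSeq windows (build GRCm38.p6) covered 6 of the 10 members, and the 250 bases before the start were searched on both strands for the NF-κB consensus known as the κB site, a motif of 10 letters. A match was present in 4 of these 6 genes, Nfkbia, Nfkbie, Nfkb2 and Rel, and not in Rela or Nfkbib. Over all 32851 windows of the same length, 7.25% held a match. Counted by gene over any window, as for the members, the share was 8.23% of 27025 genes. It was 10.5% of the 8651 tested genes with a window. Each sequence is given 5′ to 3′ on the strand of the gene, with matches in capitals, for the 4 genes with a match and for Rela as the member without one that is expressed at a steady level in untreated SFs.
Nfkbia, chr12:55492648-55492897, minus strand: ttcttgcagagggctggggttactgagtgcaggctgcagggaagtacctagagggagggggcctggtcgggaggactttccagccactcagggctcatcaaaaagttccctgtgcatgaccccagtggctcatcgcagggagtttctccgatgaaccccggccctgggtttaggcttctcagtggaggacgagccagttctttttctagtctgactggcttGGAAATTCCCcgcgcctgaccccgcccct
Nfkbie, chr17:45555450-45555699, plus strand: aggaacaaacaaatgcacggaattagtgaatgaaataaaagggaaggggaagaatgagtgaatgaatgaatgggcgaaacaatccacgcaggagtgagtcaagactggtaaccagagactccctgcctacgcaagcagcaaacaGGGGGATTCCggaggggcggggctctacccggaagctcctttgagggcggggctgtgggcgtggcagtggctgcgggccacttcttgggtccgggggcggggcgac
Nfkb2, chr19:46304487-46304736, plus strand: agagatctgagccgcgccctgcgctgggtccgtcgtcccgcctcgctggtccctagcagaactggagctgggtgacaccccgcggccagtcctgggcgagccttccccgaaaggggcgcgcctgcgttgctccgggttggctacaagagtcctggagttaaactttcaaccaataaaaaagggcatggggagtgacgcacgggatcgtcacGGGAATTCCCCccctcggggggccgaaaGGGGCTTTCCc
Rel, chr11:23770970-23771219, minus strand: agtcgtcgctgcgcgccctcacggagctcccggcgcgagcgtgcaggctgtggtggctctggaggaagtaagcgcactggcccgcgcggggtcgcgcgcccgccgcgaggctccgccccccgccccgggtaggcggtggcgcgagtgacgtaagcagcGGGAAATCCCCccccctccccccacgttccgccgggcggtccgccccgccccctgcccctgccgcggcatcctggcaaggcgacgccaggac
Rela, chr19:5637291-5637540, plus strand: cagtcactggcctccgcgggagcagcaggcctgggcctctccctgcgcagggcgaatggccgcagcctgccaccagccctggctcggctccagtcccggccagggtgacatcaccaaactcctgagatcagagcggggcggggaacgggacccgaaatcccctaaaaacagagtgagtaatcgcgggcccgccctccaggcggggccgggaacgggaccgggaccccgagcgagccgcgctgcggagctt
The match in Nfkbia lay 29 to 20 bases before the start and read GGGAATTTCC on the opposite strand. That in Nfkbie lay 106 to 97 bases before the start and read GGGGGATTCC. In Nfkb2 and Rel the capitals cover overlapping matches, since the motif can be read on both strands at the same place, and Nfkb2 has a further match 11 to 2 bases before this start, the most upstream of the 3 in the table. A match describes letters only and was not tested for binding.

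Whether amisulpride changed the transcripts of the system was tested across all genes with limma. None of the 10 members passed the study thresholds (0 of 10), against 5.7% of all genes tested, and 0 of 10 had an adjusted p-value under 0.05, against 0.285%. At an unadjusted p-value under 0.05, which 10.9% of all genes reached, there was 1 member, Nfkbie, which was lower in treated SFs (5.77% of all genes were lower at this p-value and 5.11% higher). The same gene was the only member whose treated values all lay outside the range of the untreated ones (1 of 10, against 16.5% of all genes, 8.66% lower and 7.8% higher). Of all genes, 0.19% were lower and 0.0951% higher at an adjusted p-value under 0.05. The median over the members was -0.19 on the log2 scale, with 8 of 10 below 0, where the median over all genes tested was 0.0016 and 49.9% of genes were below 0. In bulk libraries, fewer cells of a type and less RNA per cell cannot be told apart.

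**Figure D1:**
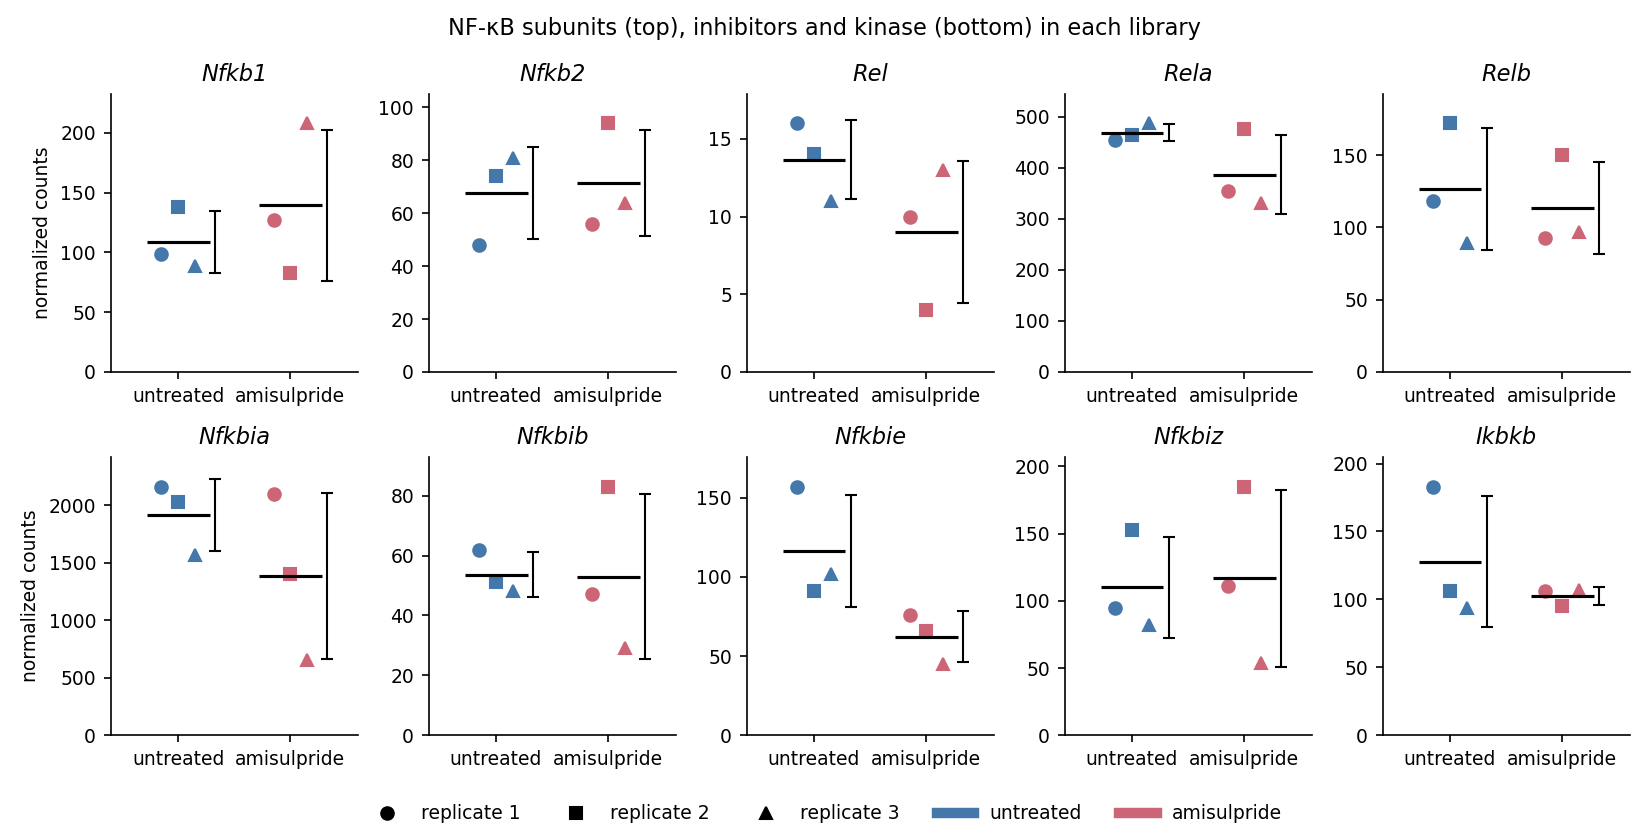
Normalized counts (vertical axes, starting at 0) of the 10 members in the 3 untreated (blue) and 3 amisulpride (red) libraries, with marker shapes for replicate numbers, horizontal lines for the group mean and vertical bars for ± 1 SD. The groups do not overlap for Nfkbie (91 to 157 against 45 to 76) and overlap for the other 9 genes.

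Among the subunits, those that carry a transactivation domain were examined first. Rela (ENSMUSG00000024927, chromosome 19, 5637483 to 5648130, plus strand, build mm10), which encodes p65, the main activating subunit in the response to TNF, stood at 455, 464 and 487 normalized counts in untreated SFs and at 354, 475 and 331 in treated SFs. The untreated values lay close together (CV 3.52%) and amisulpride replicate 2 lay among them, while the other 2 treated values were below. On the log2(normalized count + 1) scale, used for all fold changes here, the difference was -0.29 ± 0.24 (SE), with a 95% interval of -0.82 to 0.23 and a limma adjusted p of 0.705. Relb (ENSMUSG00000002983, chromosome 7, 19606217 to 19629438, minus strand), the activating partner in the noncanonical branch of the pathway, stood at 118, 172 and 89 against 93, 150 and 97. In both groups replicate 2 was highest, the groups overlapped throughout, and the log2 fold change was -0.14 ± 0.32 with an interval of -0.84 to 0.56 (limma adjusted p 0.903). Rel (ENSMUSG00000020275, chromosome 11, 23736847 to 23770970, minus strand), which encodes c-Rel, known mainly from lymphoid and myeloid cells, was near the limit of measurement at 16, 14 and 11 against 10, 4 and 13. Its value of 4 in amisulpride replicate 2 was at the floor that 3 reads give in that library, which is 4.02 normalized counts before rounding. This floor covers counting error only. Its log2 fold change of -0.66 ± 0.56 came with the widest interval among the members, -1.90 to 0.57 (limma adjusted p 0.717), and it was -0.23 without that library.

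The genes for the precursor subunits had slightly higher means in the treated group, within the spread of the libraries. Nfkb1 (ENSMUSG00000028163, chromosome 3, 135584655 to 135691547, minus strand), which encodes the p105 precursor of p50, stood at 99, 138 and 89 in untreated and 127, 83 and 208 in treated SFs. The treated values lay on both sides of the untreated ones, and the value of 208 belonged to amisulpride replicate 3. Its log2 fold change was 0.28 ± 0.35 with an interval of -0.48 to 1.05 (limma adjusted p 0.807), and -0.055 without that library. Nfkb2 (ENSMUSG00000025225, chromosome 19, 46304737 to 46312090, plus strand), which encodes the p100 precursor of p52 and also acts as an inhibitor before processing, stood at 48, 74 and 81 against 56, 94 and 64. The ranges of the groups almost coincided, and the log2 fold change was 0.07 ± 0.32 with an interval of -0.64 to 0.79 (limma adjusted p 0.952). At its 3′ end the gene overlaps Psd on the opposite strand by 4 bases, and Psd had values of 0 to 6.

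Among the inhibitors, the genes for IκBε and IκBα had lower means in treated SFs, whereas the gene for IκBβ had nearly equal ones. Nfkbie (ENSMUSG00000023947, chromosome 17, 45555716 to 45563169, plus strand) encodes IκBε, an inhibitor that NF-κB induces with a delay relative to IκBα. It stood at 157, 91 and 102 normalized counts in untreated SFs and at 76, 66 and 45 in treated SFs. Every treated value was below every untreated one, so it was necessarily lower within each replicate number too. This is a log2 fold change of -0.89 ± 0.32, or a level 0.541 times that of untreated SFs, with a 95% interval of -1.59 to -0.19. The unadjusted p was 0.0176 in limma, and the adjusted p over all genes was 0.312, so the gene did not pass the correction, nor did its fold change reach the study threshold. It passed the study thresholds without untreated replicate 2 and without amisulpride replicate 1, with -1.04 in both cases, and had an unadjusted p of 0.0815 without untreated replicate 1.

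Nfkbia (ENSMUSG00000021025, chromosome 12, 55489411 to 55492647, minus strand) encodes IκBα, the inhibitor that closes the immediate feedback loop. It stood at 2162, 2025 and 1566 normalized counts in untreated SFs and at 2096, 1401 and 655 in treated SFs. Amisulpride replicate 1 lay among the untreated values, and the other 2 treated libraries lay below all of them. The difference in log2 means was -0.61 ± 0.38 with an interval of -1.44 to 0.22 (limma adjusted p 0.599). The differences within replicate numbers were -0.04, -0.53 and -1.26 on the log2 scale, so that the gene was lower in 3 of 3 but by very unequal amounts. Amisulpride replicate 3 carried much of the mean difference, which was -0.15 without it, whereas it was -0.99 without amisulpride replicate 1. With the replicate number as a block the unadjusted p was 0.0433 in limma, against 0.133 without it, and the adjusted p was 0.322.

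Nfkbib (ENSMUSG00000030595, chromosome 7, 28758251 to 28767512, minus strand), which encodes IκBβ, an inhibitor that is not itself an NF-κB target, stood at 62, 51 and 48 against 47, 83 and 29. The treated values spread on both sides of the untreated ones, and their CV was 51.9% against 13.7%. Amisulpride and untreated means differed by -0.14 ± 0.38 on the log2 scale with an interval of -0.98 to 0.71 (limma adjusted p 0.923). The difference was 0.22 without amisulpride replicate 3. Its 5′ part overlaps Sirt2 on the opposite strand over 778 bases, away from the 3′ end where the reads of this kit fall, and at its 3′ end it overlaps Ccer2, which was at 0 in every library. Whether the counting used strand is not given in the sources used here. Nfkbiz (ENSMUSG00000035356, chromosome 16, 55811375 to 55838899, minus strand) encodes IκBζ, a nuclear member of the family that helps to switch on secondary targets such as Lcn2. It stood at 95, 153 and 82 against 111, 185 and 54, with replicate 2 highest in both groups and replicate 3 lowest in both. The log2 fold change was -0.03 ± 0.42 with an interval of -0.96 to 0.89 (limma adjusted p 0.983), and 0.43 without amisulpride replicate 3.

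Ikbkb (ENSMUSG00000031537, chromosome 8, 22659212 to 22706589, minus strand) encodes IKKβ, the kinase that phosphorylates IκB proteins in the response to TNF. It stood at 183, 106 and 94 in untreated and at 106, 95 and 107 in treated SFs. The treated values were close together (CV 6.48%) and near those of untreated replicates 2 and 3, while untreated replicate 1 stood above the rest. For this kinase the log2 fold change was -0.25 ± 0.30 with an interval of -0.91 to 0.41 (limma adjusted p 0.801), and 0.038 without untreated replicate 1.

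The precision of these values was set beside the thresholds. The 95% interval lay wholly between -1 and 1 on the log2 scale for 6 of the 10 members, Nfkb2, Rela, Relb, Nfkbib, Nfkbiz and Ikbkb, so a change by the study's threshold was outside it. For Nfkb1, Rel, Nfkbia and Nfkbie the interval reached past the threshold in 1 direction, and for Nfkb1, Rel and Nfkbia it held both a change of that size and none. The interval included 0 for 9 of the 10, all but Nfkbie. Amisulpride replicate 3, the shallowest library, held the lowest value of the 6 libraries for 5 of the 10 members and the highest for 1.

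**Figure D2:**
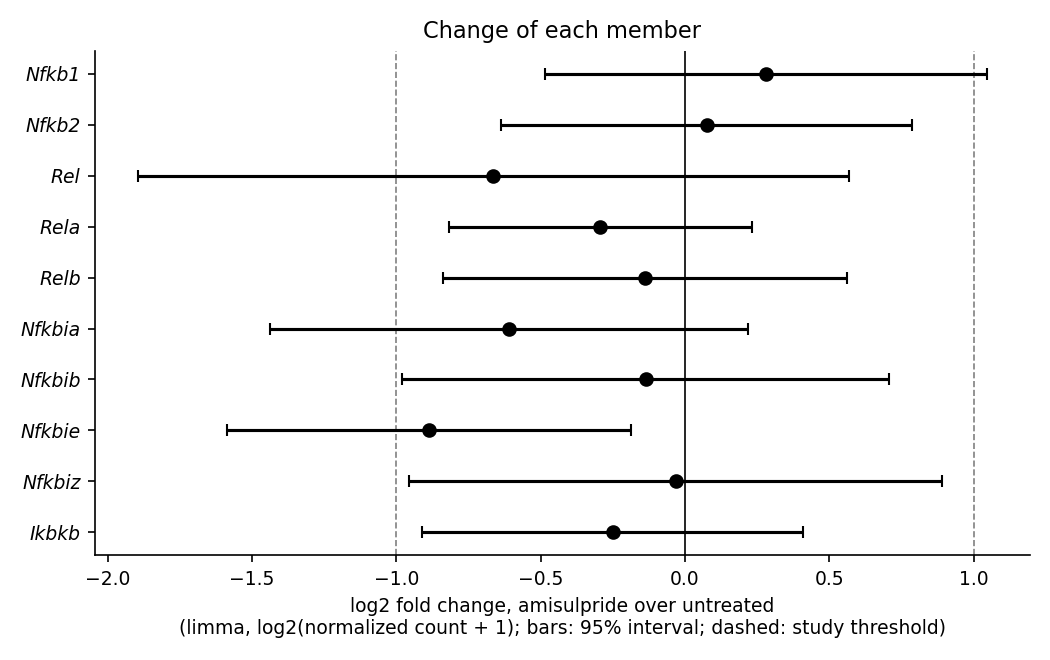
Log2 fold change of each member (horizontal axis, amisulpride over untreated, on the log2(normalized count + 1) scale), with points for the limma estimate and bars for its 95% interval, and dashed lines at the study threshold of 1 in either direction. The interval of Nfkbie, -1.59 to -0.19, leaves out 0, and those of the other 9 members include it.

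Levels were next compared within each library, where the scaling between libraries drops out. The ratio of Nfkbia to Rela, the classical inhibitor to the main activator, was 2.25, 2.12 and 1.68 on the log2 scale in untreated and 2.56, 1.56 and 0.98 in treated SFs. Amisulpride replicate 1 had the highest ratio of the 6 libraries and the other 2 treated libraries the lowest, so the groups overlapped. The ratio of Nfkbie to Rela was -1.53, -2.34 and -2.24 in untreated and -2.21, -2.83 and -2.85 in treated SFs, and amisulpride replicate 1 lay within the untreated range, so that the groups, which did not overlap for Nfkbie alone, overlapped relative to Rela. Within replicate numbers this ratio was lower in treated SFs in 3 of 3, by -0.68, -0.49 and -0.61, whereas that of Nfkbia to Rela differed by 0.32, -0.56 and -0.70. These 2 ratios were chosen after the values were seen. The mean of the 7 members known to be induced by NF-κB (Nfkb1, Nfkb2, Rel, Relb, Nfkbia, Nfkbie and Nfkbiz) minus that of the 3 others (Rela, Nfkbib and Ikbkb) was -0.32 ± 0.27 (SD, n = 3) in untreated and -0.38 ± 0.22 in treated SFs, a difference of -0.05 that was smaller than the spread within either group. This difference ranged from -0.17 to 0.09 when 1 library was left out. Among the inducible members, Nfkbia, Nfkbie and Rel had the lowest fold changes and Nfkb1 the highest.

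**Figure D3:**
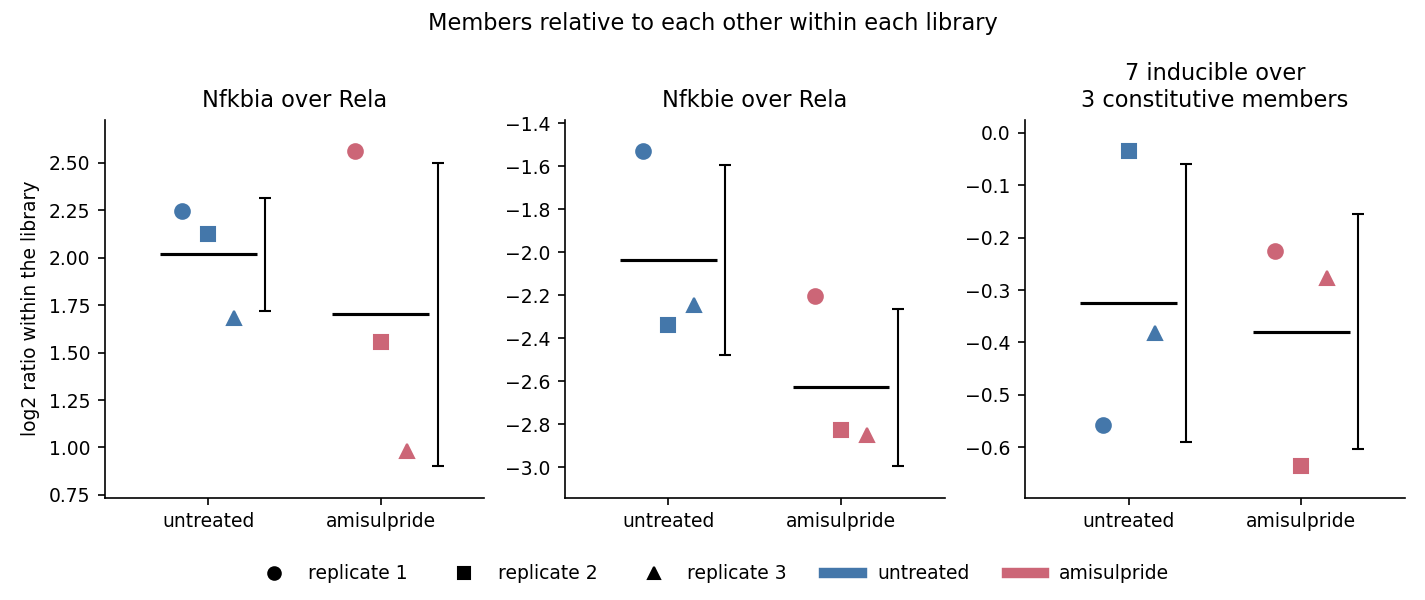
Log2 ratios within each library (vertical axes) of Nfkbia to Rela, Nfkbie to Rela and the 7 inducible to the 3 other members, for untreated (blue) and amisulpride (red) libraries, with horizontal lines for the mean and vertical bars for ± 1 SD (n = 3). The groups overlap in all 3 panels, and the treated values of Nfkbia to Rela span 0.98 to 2.56.

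How the members varied with each other over the 6 libraries is given as a description, since libraries of 2 groups and unequal depth make up the points. Nfkbia and Nfkbie went up and down together (Pearson r 0.796), as did Nfkbib and Nfkbiz (0.834), whereas Nfkb1 ran opposite to Rela (-0.81) and to Nfkbib (-0.865). Of 11025 other protein-coding genes, the one most like Nfkbia was Gpx4 (r 0.998), a peroxidase that protects membrane lipids, the one most like Nfkbie was Tstd3 (0.994), and the one most like Nfkb1 was Mcl1 (0.984), which encodes a survival protein of the BCL2 family. For the other members these were Impact for Nfkb2 (0.990), Anxa11 for Rel (0.994), Tyms for Rela (0.995), Steap4 for Relb (0.979), Rnf139 for Nfkbib (0.986), Klhl22 for Nfkbiz (0.991) and Tm2d3 for Ikbkb (0.992). With 6 points such values are common, and 328 genes exceeded 0.9 with Nfkbia alone.

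The rest of the pathway was examined with 4 lists of regulators that hold 51 genes, 48 of them tested. Of these, 1 rose and 1 fell past the study thresholds (4.17%, against 5.7% of all genes). In limma 0 had an adjusted p-value under 0.05, against 0.285% of all genes, and 5 had an unadjusted p under 0.05, against 10.9%. Among the other IκB-type regulators (6 tested, median log2 fold change -0.04) 0 passed. Bcl3, a nuclear IκB protein that binds p50 and p52 dimers, is named after its values were seen because they resembled those of Nfkbie. It stood at 126, 175 and 115 in untreated and at 100, 87 and 50 in treated SFs, which did not overlap, with a log2 fold change of -0.84 ± 0.32 and a limma adjusted p of 0.355. Like Nfkbie, it passed the study thresholds without amisulpride replicate 1. Among the partners of Ikbkb and the kinases upstream of it (9 tested, median 0.09), which include Chuk, Ikbkg, Tbk1 and Map3k14, 0 passed.

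Of the receptors and adaptors that connect TNF and related ligands to IKK (21 tested, median -0.10), Traf5 fell and Cd40 rose. Traf5, an adaptor of TNF receptor family members, stood at 39, 37 and 49 in untreated and 18, 21 and 16 in treated SFs, with no overlap, a log2 fold change of -1.14 ± 0.35 and a limma adjusted p of 0.232. With a pseudocount of 5 in place of 1 it was at -0.997, just short of the threshold. Cd40, a receptor of the TNF family that feeds the noncanonical branch, stood at 13, 6 and 4 against 32, 27 and 9, so its groups overlapped, and its log2 fold change was 1.41 ± 0.62 (limma adjusted p 0.438). Because of that overlap Cd40 is outside the rule for named genes, and it is given to complete the count. Its call was lost in 5 of the 6 fits without 1 library and kept without amisulpride replicate 3. Tnfrsf12a, the receptor for TWEAK, had the lowest p-value of the 4 lists and is named for it after its values were seen. It stood at 240, 237 and 243 against 144, 106 and 123, with no overlap, a log2 fold change of -0.95 ± 0.24 just short of the threshold and a limma adjusted p of 0.144. Tnfrsf1a, which encodes the TNF receptor that SFs depend on and is named here for that role after its values were seen, stood at 542, 850 and 730 against 624, 723 and 635, with a log2 fold change of -0.08 ± 0.25. Of the negative regulators of the IKK step (12 tested, median -0.09) 0 passed, and 1 passed with the replicate block, Usp18, an interferon-induced protease at 3, 11 and 7 against 20, 44 and 7. Tnfaip3, a ubiquitin-editing enzyme and classical NF-κB feedback gene, also named after its values were seen, stood at 36, 83 and 58 against 44, 48 and 52, with the treated values inside the untreated range and a log2 fold change of -0.22 ± 0.35. Cyld, which removes ubiquitin chains from adaptors of the pathway and is named after its values were seen, stood at 461, 419 and 406 against 337, 284 and 285. Its groups did not overlap, with a log2 fold change of -0.51 ± 0.23 and a limma adjusted p of 0.454.

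**Figure D4:**
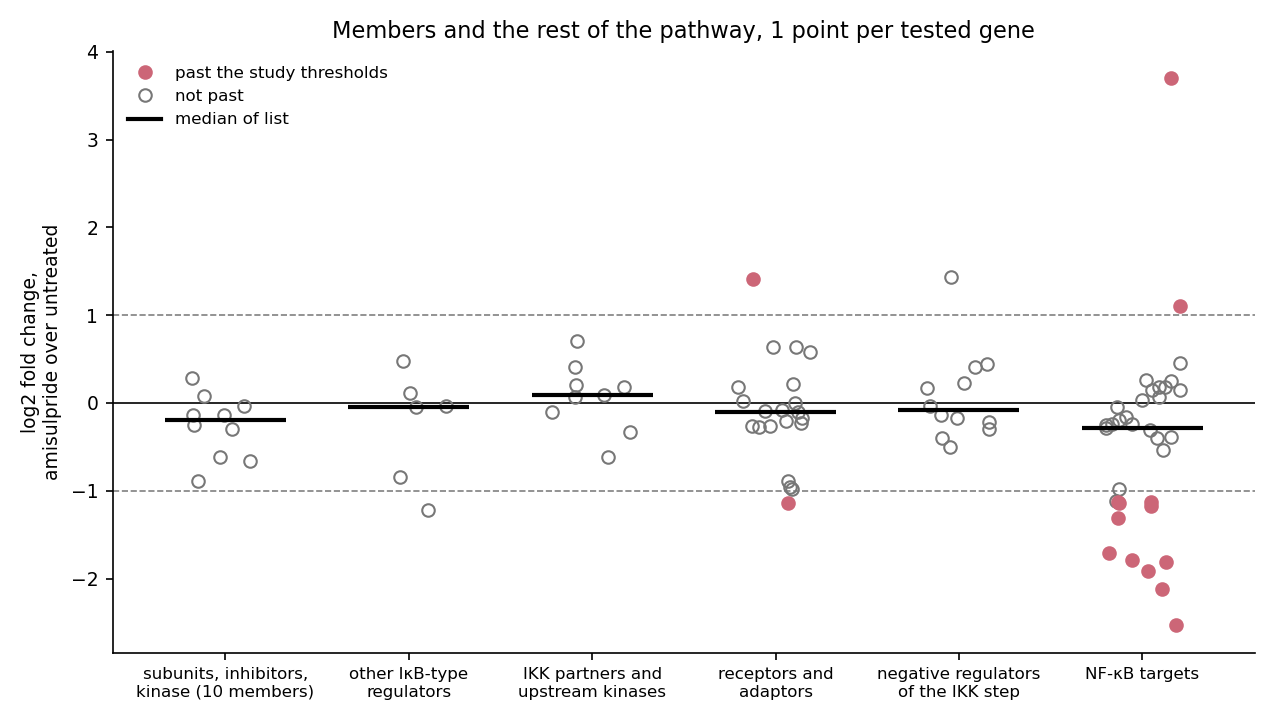
Log2 fold change (vertical axis, amisulpride over untreated) of every tested gene in the member list and in 5 further lists of the pathway, with filled red points past the study thresholds, open points not past them, a bar at each list's median and dashed lines at 1 in either direction. The members hold 0 filled points of 10 and the target list 13 of 35, of which 11 are below 0.

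The targets of NF-κB in fibroblasts were set beside its regulators. Of 40 listed targets 35 were tested, and 11 fell and 2 rose past the study thresholds, which is 37.1% of the list against 5.7% of all genes, 3.01% lower and 2.69% higher. The median log2 fold change of the list was -0.29, and it ranged from -0.51 to -0.15 when 1 library was left out. This list was written with results on several of its genes known, and so its count is a description. The targets that fell with no overlap of the groups were Ccl2, Ccl20, Cxcl2, Cxcl3, Tnf (the mouse gene and not the human transgene), Ptgs2 and Mmp3. They encode chemokines, mouse TNF, cyclooxygenase 2 and stromelysin, with log2 fold changes from -2.53 for Cxcl3 to -1.12 for Ccl2. Ccl5, named to complete the count, fell past the thresholds at -1.13, but its groups overlapped (75, 226 and 104 against 44, 116 and 32). Of the tested targets 24 were below 0 and 11 above. Those above included Icam1 (0.45), Vcam1 (0.18) and Cxcl10 (0.25), named after their values were seen, whose groups overlapped. The targets that rose past the thresholds with no overlap were Lcn2 (3.70 ± 0.46, limma adjusted p 0.013), which encodes a secreted iron carrier protein, and Gadd45b (1.10 ± 0.31, limma adjusted p 0.19), a stress response gene that lowers JNK signaling. Cxcl2, a neutrophil chemokine, fell from 24, 68 and 44 to 8, 19 and 7 normalized counts, a log2 fold change of -1.92 ± 0.51 with a limma adjusted p of 0.167. Of the targets past the study thresholds, 3 had an adjusted p-value under 0.05 in limma, namely Ccl20, Cxcl3 and Lcn2. The share over all genes tested was 0.285%. With the replicate block, the count over all 12614 genes tested went from 36 to 263. With that block, 6 more of the targets past the study thresholds had adjusted p-values under 0.05 in limma, Cxcl2 (0.0257), Ptgs2 (0.00209), Mmp3 (0.0091), Mmp9 (0.00371), Mmp13 (0.0105) and Saa3 (0.0459). The groups overlapped for Mmp9, Mmp13 and Saa3, which are named to complete this count. Without untreated replicate 2 the count of targets past the study thresholds was 8. The call on Tnf, at 27, 16 and 16 against 10, 7 and 7, was lost without any 1 library other than amisulpride replicate 1, that on Ccl2 without untreated replicate 2 or amisulpride replicate 3, and that on Gadd45b without untreated replicate 1 or amisulpride replicate 2. With all libraries and a pseudocount of 5 in place of 1, Tnf was at -0.90, short of the threshold.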

How the data were processed

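Libraries of 3′ mRNA were made with the QuantSeq kit and sequenced on an Ion Proton instrument. The authors mapped reads to mm10 with TopHat2 and then Bowtie2, counted reads per gene with GenomicRanges normalized them and ran DESeq, through metaseqr. Tool versions are not given in the sources used here. Values in the deposited table are a score: read counts that the authors scaled between libraries and rounded to whole numbers, and 12 further columns of values per library were not used. The authors' own fold changes, p-values and means were also deposited and not used. The value of 1 read was recovered from the pattern of whole numbers, and reads remained approximate, so no count test was run.

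The comparison used limma 3.58.1 (R 4.3.3) and log2(normalized count + 1), with a variance trend (prior degrees of freedom 7.31), two-sided, for genes with at least 10 in at least 3 libraries. Adjusted p-values (Benjamini-Hochberg) cover the 12614 tested genes. An exact permutation test of 3 against 3 libraries cannot go below 0.1, so none was used. Samples with the same replicate number deviated together (correlations of 0.229, 0.24 and 0.201 within numbers and -0.149 to -0.0777 between them). Neither the labels nor the study say that samples with the same number share a culture or a batch. The pairing therefore rests on these same data, and the block is given as an alternative only, where it changes a result. The study states 3 biological replicates, and neither it nor the labels say whether these came from separate animals, so p-values measure the spread between these samples only.

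Members and lists were chosen with earlier results of these data known. Named genes are the 10 members, and those genes of the other lists past the study thresholds whose groups did not overlap. The gene most like each member was the one with the highest correlation over the libraries.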

Additional observations from a re-analysis of the deposited data

How the results depend on the processing

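The main fit was set beside 12 alternatives. Among 120 alternative values of the members, 108 kept direction and call, 0 had an adjusted p-value under 0.05 in limma and 13 an unadjusted one. Of the rest, 10 changed sign and 2 passed the study thresholds (Nfkbie). With library weights Nfkbib was 0.15 and Nfkbiz 0.25. Leaving out 1 library gave -0.055 to 0.60 for Nfkb1, -0.15 to 0.23 for Nfkb2, -0.97 to -0.23 for Rel, -0.45 to -0.19 for Rela, -0.36 to 0.11 for Relb, -0.99 to -0.15 for Nfkbia, -0.52 to 0.22 for Nfkbib, -1.04 to -0.65 for Nfkbie, -0.45 to 0.43 for Nfkbiz and -0.44 to 0.038 for Ikbkb. It gave 0 to 1 members past the study thresholds, the 1 being Nfkbie, and a median of -0.40 to -0.10. Counts in the other lists rested on single genes. IκB-type regulators gave 1 with weights (Nkrf) and 0 to 1 with a library left out (median -0.24 to 0.10). That gene was Bcl3 without amisulpride replicate 1 and Nkrf without amisulpride replicate 3. Kinases gave 0 to 1 (Tab2 without amisulpride replicate 2, median -0.093 to 0.12). Receptors and adaptors gave 1 with a pseudocount of 5 and 1 to 2 with a library left out (not always the same genes, median -0.21 to -0.034). Negative regulators gave 1 (Usp18) with quantile normalization, weights and the replicate block and 0 to 1 with a library left out (median -0.12 to 0.0073, and 0.019 with weights). Targets gave 8 to 13 with a library left out (median -0.51 to -0.15).

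Over all genes, 719 passed the study thresholds (339 higher, 380 lower) and 1313 without a filter (621 and 692). At an adjusted p-value under 0.05 there were 36 genes (12 higher, 24 lower), and 57 with a pseudocount of 5 (23 higher), 57 without a filter (25 higher), 66 with quantile normalization (30 higher), 263 with the replicate block (130 and 133) and 195 with weights (93 and 102). Leaving out 1 library gave 0 to 120 (0 to 50 higher, 0 to 70 lower). In limma the count was 0 on leaving out untreated replicate 2 (1083 genes at an unadjusted p under 0.05) or untreated replicate 3 (911 genes). The cause was not tested. The replicate block moved no member across the study thresholds. At 2.52 to 4.71 M reads and 3 libraries a group, a gene as low as Rel had an interval of -1.90 to 0.57.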

Other observations

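The κB consensus was also counted in the 250 bases before the start of the NF-κB targets, as a description with no test. A window was at hand for 28 of the tested targets, and 13 of them (46.4%) held a match, against 10.5% of the 8651 tested genes with a window. Of the 8 targets with a window that fell past the study thresholds, 3 held a match.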
